A study of Mus musculus with 8 samples.

Results

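The EGR family of zinc finger transcription factors (Egr1, Egr2, Egr3 and Egr4) and the NAB corepressors (Nab1 and Nab2) were followed in mouse aortic smooth muscle cells treated with angiotensin II, with and without the calcineurin inhibitor cyclosporin A. The members were the probes that the array annotation assigns to these 6 genes, 8 probes of 41174 in all. Egr3 and Nab1 had 2 probes each and the other genes 1 probe each, and the Egr2 probe was printed as 10 spots. A probe was tested where its signal was well above background, by the mark of the scanner software, on at least 4 of the 8 arrays. Of the 8 probes 6 passed, for 5 genes, and neither Egr3 probe did.

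RNA came from primary vascular smooth muscle cells of C57BL/6 mouse aortas and was hybridised to 1-colour Agilent arrays. The AngII+CsA group held 4 independent cultures with 1 µM angiotensin II and 200 ng/ml cyclosporin A, and the AngII group held 4 cultures with 1 µM angiotensin II alone. Both groups grew in medium with serum. The length of treatment and the age and sex of the mice are not given in the sources used here, and cultures without angiotensin II were not analysed here. Arrays with the same replicate number in the labels lay on the same slide, so each AngII+CsA array was compared with the AngII array of its own number. Replicate number, slide and culture preparation cannot be told apart. In RNA from whole cultures, fewer cells that express a gene and less of its RNA per cell cannot be told apart either.

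EGR proteins are immediate early factors. Growth factors, stretch and angiotensin II are known to switch their genes on within minutes through ERK signalling, ETS-family factors and serum response factor, and the proteins bind GC-rich sites in the promoters of genes for growth factors and tissue factor. NAB1 and NAB2 bind EGR1, EGR2 and EGR3, recruit chromatin repressors and limit transcription at EGR sites, and NAB2 is itself known as an EGR target, which closes a feedback loop. In T cells the genes for EGR2 and EGR3 are known to depend on calcineurin and NFAT, the pathway that cyclosporin A blocks.

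Values are log2 signals relative to the 75th percentile of the array, so 0 is the level that 1 in 4 spots exceeds and 1 unit is a doubling. They are compared between arrays for a given probe and not between probes. Between 42.8% and 51.7% of the spots on an array were well above background. The smooth muscle label was checked on 10 marker genes, of which 9 passed the filter. The smooth muscle actin gene Acta2 averaged 7.51 ± 1.45 with AngII+CsA and 7.50 ± 1.45 with AngII (SD, n = 4 each), and Myocd, which encodes the coactivator myocardin, did not pass. Of 8 endothelial markers, Pecam1, Cdh5 and Tie1 were above background on 0 arrays and Kdr on 2, while Tek was above it on 8, Vwf on 7, Emcn on 6 and Nos3 on 4. Rcan1, the feedback inhibitor of calcineurin and a known NFAT target, was 4.79-fold lower with AngII+CsA by 1 probe (adjusted p = 0.0214 by limma with the replicate number as a block and Benjamini-Hochberg adjustment over 19530 probes). A second Rcan1 probe, above background on all 8 arrays, was 2.84-fold lower and did not pass (adjusted p = 0.241 by limma). The first was 1 of the 2 probes called over the whole table, 0.0102% of those tested, both lower with AngII+CsA. That count fell to 0 whenever the arrays of any 1 replicate number were left out.

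None of the 6 tested probes of the EGR and NAB genes passed that test. Egr4 and Egr1 were higher with AngII+CsA in 4 of 4 pairs, by 1.35-fold and 1.20-fold (in 1 pair each a signal was at background), Egr2 was lower in 3 of 4 pairs by 1.11-fold, and the Nab1 and Nab2 probes went both ways. Of all probes tested, 4.98% were higher in 4 of 4 pairs and 9.45% were lower in 4 of 4 pairs. Much larger than any difference between the groups was the difference between replicate numbers, which between the lowest and the highest array was 5.76-fold for Egr1, 4.93-fold for Egr2 and at least 7.35-fold for Egr4. The last is a bound, because Egr4 was not well above background in replicate 1. There the lowest signal well above background on the array stood in for its own. A difference that misses the threshold is not shown to be absent, and the intervals below give the sizes that each probe allows.

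**Figure D1:**
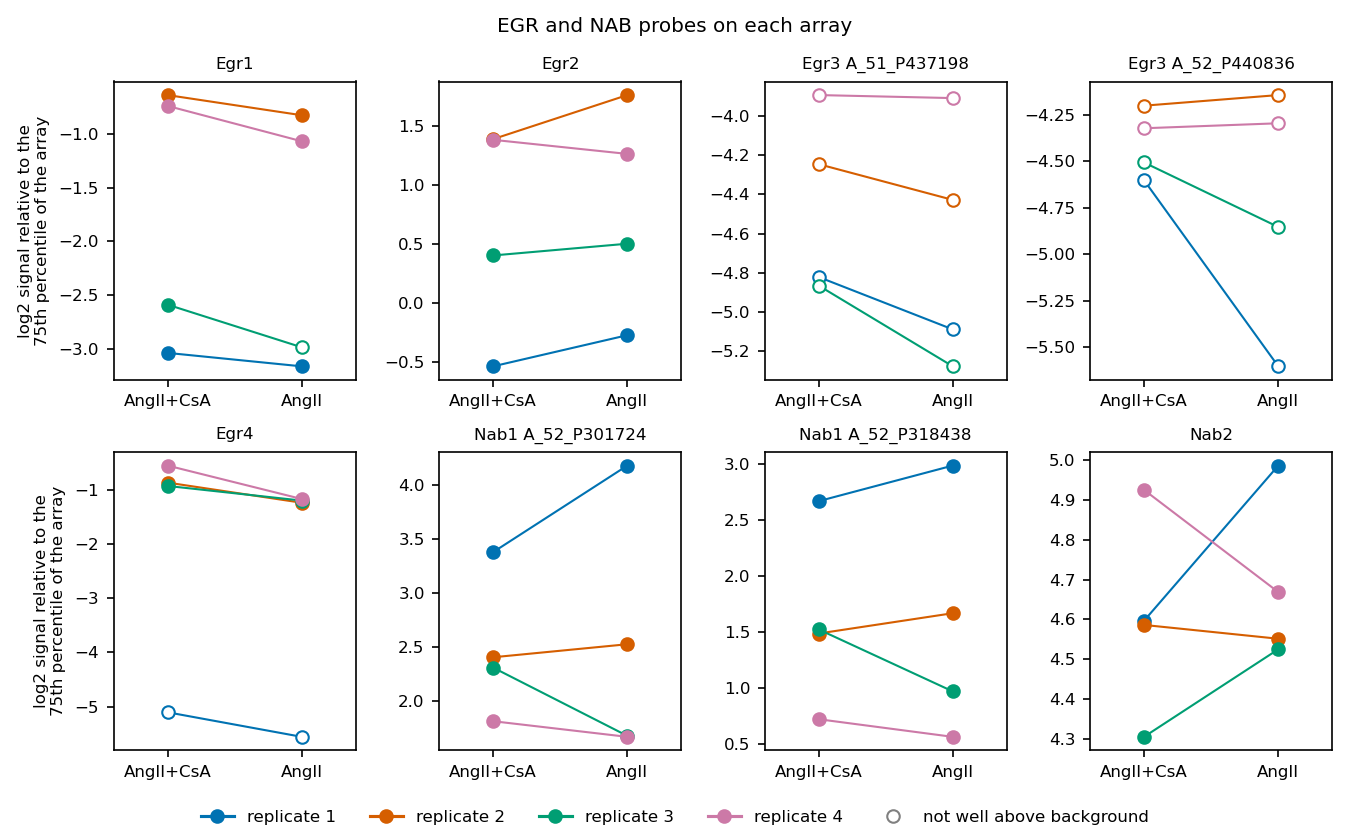
Signal of the 8 EGR and NAB probes on each array, as log2 signal relative to the 75th percentile of the array, with AngII+CsA left and AngII right in each panel. Lines join arrays of the same replicate number, open circles mark signals not well above background, and each panel has its own scale. Lines lie far apart and nearly parallel for Egr1, Egr2 and Egr4, Nab1 is highest in replicate 1, and both Egr3 probes are open on all 8 arrays.

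Egr1, the prototype of the family and the factor that turns on Pdgfa and tissue factor in injured vessels, had a dim signal in these cultures. Its values were -3.04, -0.64, -2.59 and -0.74 with AngII+CsA in replicates 1 to 4, against -3.16, -0.83, -2.99 and -1.07 with AngII. Replicates 1 and 3 were low and replicates 2 and 4 high in both groups, so the groups overlapped almost completely. On the linear scale of the scanner the signals ran between 12.5 and 80.0 with AngII+CsA and between 8.22 and 70.5 with AngII, and the AngII array of replicate 3 was not well above background. The means were -1.75 ± 1.24 with AngII+CsA and -2.01 ± 1.23 with AngII (SD, n = 4 each).

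Within pairs Egr1 was higher with AngII+CsA by 0.13, 0.19, 0.40 and 0.33 in replicates 1 to 4, a mean difference of 0.26 with a 95% interval of 0.00078 to 0.52. By limma with the block the p was 0.0495 before and 0.927 after adjustment over all probes, and 1.5% of the probes were higher at an unadjusted p below 0.05. Sign flips over the 4 pairs gave an exact two-sided p of 0.125, the smallest that 4 pairs allow. With normexp background correction the mean difference was -0.015. That setting adds an offset of 50 to every signal, which draws differences between signals this dim toward 0. The cause of the change of sign was not tested. The Egr1 probe lies on chromosome 18 from 35240842 to 35240901 on the plus strand in mm7, the build of the array annotation. The exon or UTR that each probe matches was not looked up, for want of gene models in mm7 coordinates.

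Egr2, also called Krox20, patterns the hindbrain and drives myelination in Schwann cells, and restrains T cell activation. Its probe, on chromosome 10 from 67145376 to 67145435 (mm7, plus strand), was well above background on all 8 arrays. The values were -0.54, 1.39, 0.41 and 1.39 with AngII+CsA, against -0.27, 1.77, 0.50 and 1.27 with AngII. Replicate 1 was lowest and replicates 2 and 4 were highest in both groups, and the groups overlapped. The 10 spots of the probe had an SD between 0.025 and 0.11 over the spots of an array, and none of the 80 spots was an outlier. The SD between cultures was 0.92 with AngII+CsA and 0.89 with AngII (n = 4 each).

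The within-pair differences of Egr2 were -0.26, -0.37, -0.10 and 0.12, lower with AngII+CsA in 3 of 4 pairs. Their mean was -0.15, with a 95% interval of -0.45 to 0.14 (adjusted p = 0.933 by limma with the block). The mean was -0.065 with normexp background correction and -0.050 with median scaling. The interval spans 0.73-fold to 1.10-fold and so holds neither a halving nor a doubling of Egr2 with AngII+CsA.

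Upstream sequence is shown for Egr2 because the serum response element is the textbook route by which this gene family is switched on. RefSeq lists 5 starts for Egr2 in GRCm38.p6, and 4 of them have a CArG box, the site of serum response factor, within the 250 bases before the start. For 3 closely spaced starts among them it is the same box, counted once for each start. The window shown ends at the base before one of these 3 starts, chr10:67537619-67537868 on the plus strand. Capitals mark the CArG box, 72 bases before the start, and downstream of it the cyclic AMP response core TGACGT, read on the opposite strand.
Egr2: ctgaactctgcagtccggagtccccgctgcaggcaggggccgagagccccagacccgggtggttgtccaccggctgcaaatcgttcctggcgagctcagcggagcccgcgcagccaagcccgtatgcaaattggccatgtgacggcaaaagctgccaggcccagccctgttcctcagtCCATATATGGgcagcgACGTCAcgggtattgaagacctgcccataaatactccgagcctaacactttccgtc
The search covered both strands, and the capitals do not overlap. Over 32851 RefSeq windows of the same length, which hold some genes more than once, 1.47% had a CArG box and 6.47% had TGACGT. The NFAT core GGAAA, searched in the same way, occurred once in the Egr2 window shown and in 55.6% of all windows. The window of another Egr2 start, from 67537316, held it at 3 places, and that from 67535249 at 0. Of all windows 21.4% held it at 2 or more places. A match is a string of letters and not a measured binding site.

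Egr3, which is known for muscle spindle development and, with Egr2, for T cell tolerance, could not be measured. Its 2 probes, on chromosome 14 from 64723504 to 64723563 and from 64726656 to 64726715 (mm7, plus strand), were well above background on 0 of 4 arrays with AngII+CsA and 0 of 4 with AngII. The linear signals of the probe at the lower coordinate ran between 2.90 and 8.08 with AngII+CsA and between 1.68 and 6.88 with AngII, and those of the other between 3.72 and 6.77 with AngII+CsA and between 1.78 and 7.08 with AngII. The within-pair differences of the probe at the lower coordinate were 0.27, 0.18, 0.41 and 0.02 and those of the second probe 1.00, -0.06, 0.35 and -0.03, all differences between signals at background, from which no fold is given.

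Egr4, a member known from neurons and male germ cells and the one that NAB proteins are not known to bind, was at background in the replicate 1 cultures and above it in the others. Its values were -5.11, -0.86, -0.92 and -0.54 with AngII+CsA, against -5.56, -1.23, -1.19 and -1.16 with AngII. The replicate 1 cultures stood apart in both groups, with linear signals of 2.98 with AngII+CsA and 1.83 with AngII that were not well above background, while the other 6 arrays lay between 28.5 and 82.5 and were. In those 6, looked at with replicate 1 set aside, the values were -0.92 to -0.54 with AngII+CsA and -1.23 to -1.16 with AngII. The share of all probes whose groups separate in the same 6 arrays was not counted. Set against the lowest signals well above background on the replicate 1 arrays, the other 6 arrays were on average at least 5.22-fold higher. The SD of 2.17 with AngII+CsA and of 2.18 with AngII (n = 4 each) rests on these background signals.

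Egr4 was higher with AngII+CsA by 0.45, 0.37, 0.27 and 0.62 in replicates 1 to 4. The mean of 0.43 had a 95% interval of 0.16 to 0.70, or 1.12-fold to 1.62-fold, and the smallest p of the 6 tested probes, rank 131 of 19530 (adjusted p = 0.927 by limma with the block). Without replicate 1, where the signal was at background, the difference was 0.42 (adjusted p = 0.87 by limma). With normexp background correction, whose offset of 50 draws dim signals together, it was 0.076. Over all alternative settings the difference ran between that value and 0.56, with adjusted p by limma between 0.409 and 0.9999. The exact sign flip p was 0.125 here too.

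The Egr4 probe lies on chromosome 6 from 85540804 to 85540863 on the minus strand (mm7). The 250 bases before its RefSeq start, chr6:85513590-85513839 on the minus strand of GRCm38.p6, are shown because Egr4 had the smallest p. Capitals mark the cyclic AMP response core TGACGT, found at 2 places on the opposite strand, 178 and 110 bases before the start.
Egr4: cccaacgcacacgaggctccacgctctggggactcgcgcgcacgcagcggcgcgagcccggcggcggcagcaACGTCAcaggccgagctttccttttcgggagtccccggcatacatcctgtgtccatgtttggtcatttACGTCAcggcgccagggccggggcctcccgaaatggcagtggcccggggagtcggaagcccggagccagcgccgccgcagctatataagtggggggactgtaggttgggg
Of the 32851 windows, 1.80% had this core at 2 or more places. The Egr4 window held GGAAA once, on the opposite strand, and the searched letters of the CArG box and of the EGR sites were not in it.

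**Figure D2:**
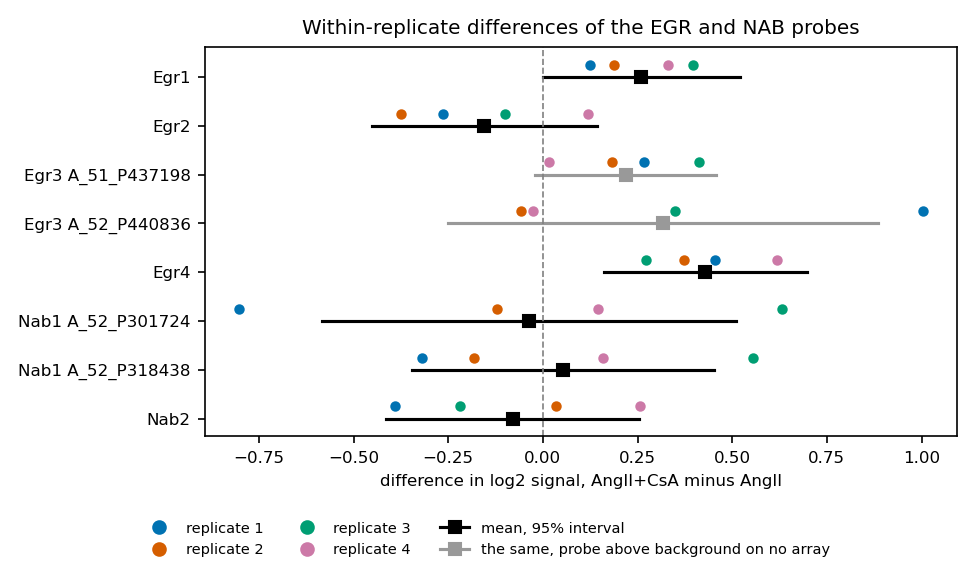
Difference in log2 signal, AngII+CsA minus AngII, for each EGR and NAB probe. Circles are the 4 replicate pairs, squares the mean, and bars the 95% interval by limma with replicate numbers blocked, in grey for the 2 Egr3 probes, which were above background on no array. All 4 circles are right of 0 for Egr1 and Egr4, and the widest interval of a tested probe is that of Nab1 A_52_P301724.

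Nab1, the corepressor that is present in most tissues, was measured by 2 probes on the minus strand of chromosome 1, from 52690919 to 52690978 (A_52_P301724) and from 52691878 to 52691937 (A_52_P318438) in mm7. The first gave 3.37, 2.40, 2.31 and 1.81 with AngII+CsA, against 4.18, 2.52, 1.68 and 1.67 with AngII. The second gave 2.67, 1.49, 1.53 and 0.72 with AngII+CsA, against 2.99, 1.67, 0.97 and 0.57 with AngII. By both probes replicate 1 was the highest in either group and replicate 4 the lowest, and the groups overlapped.

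The within-pair differences of Nab1 changed sign between replicates in the same way for both probes. Those of the first were -0.80, -0.12, 0.63 and 0.14 and those of the second -0.32, -0.18, 0.55 and 0.16, lower with AngII+CsA in replicates 1 and 2 and higher in replicates 3 and 4. The means were -0.036 (95% interval -0.58 to 0.51) and 0.053 (-0.35 to 0.45), with adjusted p of 0.985 and 0.975 by limma with the block. The first interval spans 0.67-fold to 1.42-fold, so changes within it in either direction are not shown to be absent. It holds for 1 probe by itself, without the adjustment over all probes, and is not a limit of detection.

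The region upstream of Nab1 was chosen after the search, because it held matches to the EGR site. In the 250 bases before its RefSeq start, chr1:52500449-52500698 on the minus strand of GRCm38.p6, the EGR site GCGTGGGCG occurs at 2 places, 141 bases before the start on the opposite strand and 109 bases before it on the same strand, and the variant GCGGGGGCG at 1 place, 38 bases before the start. Capitals mark these 3 matches, which do not overlap.
Nab1: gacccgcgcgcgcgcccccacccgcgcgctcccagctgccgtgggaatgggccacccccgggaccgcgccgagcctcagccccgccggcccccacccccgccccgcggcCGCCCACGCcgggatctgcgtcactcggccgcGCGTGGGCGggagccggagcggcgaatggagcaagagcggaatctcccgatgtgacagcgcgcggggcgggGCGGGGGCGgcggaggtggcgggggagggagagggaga
GCGTGGGCG was found on either strand in 0.536% of all windows and at 2 or more places in 7 of 32851, and GCGGGGGCG in 2.57%. The Nab1 window is 80.8% G and C. The window of the same length before the RefSeq start of Nab2, 72.8% G and C, held neither GCGTGGGCG nor GCGGGGGCG. Nab1 was high and Egr1, Egr2 and Egr4 were low in replicate 1, but in replicate 3, where Egr1 was again low, Nab1 was not high. Pearson's r between Egr1 and Nab1 was -0.51 over the 8 arrays and 0.27 without replicate 1, and between Egr2 and Nab1 -0.67 and 0.31.

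Nab2, the inducible corepressor, had a steady signal. Its probe, on chromosome 10 from 127162313 to 127162372 (mm7, minus strand), gave 4.60, 4.59, 4.31 and 4.93 with AngII+CsA, against 4.99, 4.55, 4.53 and 4.67 with AngII. All 8 values lay within 0.68 of each other, a 1.60-fold range, and the groups overlapped. The within-pair differences were -0.39, 0.03, -0.22 and 0.26, with a mean of -0.080 and a 95% interval of -0.41 to 0.25 (adjusted p = 0.957 by limma with the block).

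The share of the spread that belonged to the replicate number set the members apart from one another. The SD of the 4 replicate means, each the mean of an AngII+CsA and an AngII array, was 1.24 for Egr1, larger than that of 97.9% of the probes tested, and 0.90 for Egr2, larger than that of 92.7%. For Egr4 it was 1.20 with replicate 1 at the lowest signal well above background (2.18 with its own background signals) and 0.11 over replicates 2 to 4, so its spread was that of 1 replicate number. The median probe had 0.41. The SD of the within-pair differences of Egr4 and Egr1 was 0.15 and 0.13, pairs at background included, below the 0.27 of the median probe and larger than that of 17.5% and 12.4% of the probes. Both Nab1 probes varied much between replicate numbers, 0.91 and 0.92, but also between pairs, 0.60 and 0.39. Nab2 was at the other end, with 0.19 between replicate numbers, larger than that of 6.95% of the probes. These are descriptions of 4 pairs of arrays and carry no test.

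**Figure D3:**
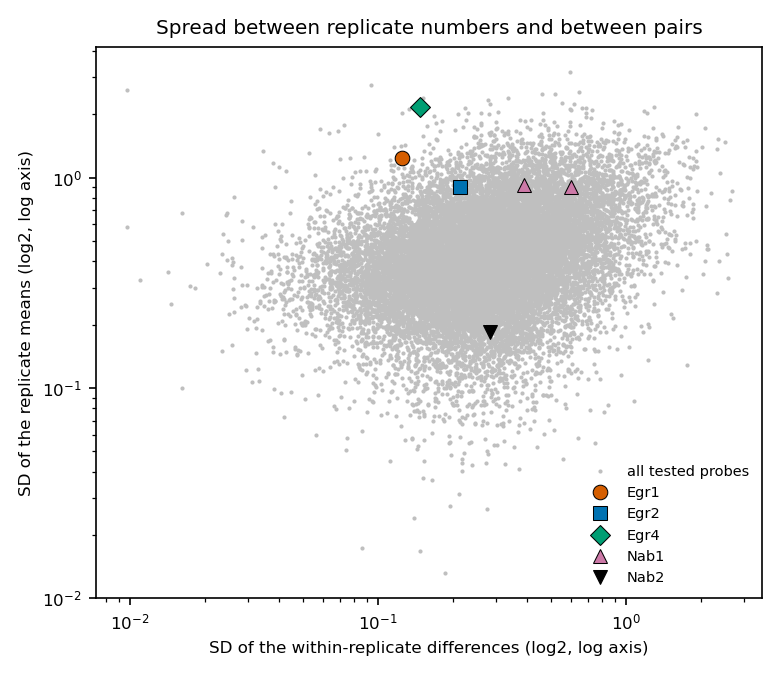
Spread of each probe between replicate numbers (SD of the 4 replicate means, vertical) and between pairs (SD of the 4 within-replicate differences, horizontal), in log2 on log axes. Grey dots are all tested probes complete on the 8 arrays. Egr4 is drawn with its own signals, which were at background in replicate 1, at 2.18 on the vertical axis. Egr1 lies at 1.24 and Nab2 low, at 0.19.

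Egr1 and Egr2 varied together over the arrays. Pearson's r of their values was 0.93 over the 8 arrays and 0.94 over the 6 arrays of replicates 2 to 4. Egr2 and Egr4 had an r of 0.83 over the 8 arrays and of 0.067 without replicate 1, and Egr4 and Nab1 had -0.90 and -0.030, so these relations rested on the replicate 1 pair. The 8 arrays are 4 pairs that share a slide, and no p is given.

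Among 11563 other genes with a current symbol, the values most like those of Egr1 belonged to Depdc5, Vwc2 and Foxc2, a forkhead factor of vessel development, with r of 0.996, 0.991 and 0.990 over the 8 arrays and of at least 0.985 without replicate 1. For Egr2 they were Taar4, Dhtkd1 and Plagl1, at 0.990 each and at least 0.967 without replicate 1. For Egr4 they included the cartilage collagen gene Col9a2 and the transporter gene Slc15a3, at 0.990 and 0.988, but 0.28 and 0.56 without replicate 1. For Nab1 they were Mbip, Rnf13 and Nmd3, at 0.997, 0.995 and 0.992 (at least 0.964 without replicate 1), and for Nab2 Scn10a, Irx1 and Olfr291, at 0.937, 0.896 and 0.885. With few independent pairs and many genes, high values of r are easily reached.

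Other immediate early genes shared the low level of replicate 1 in part. Both replicate 1 arrays lay below the other 6 for 14 of 30 measured genes of that list, and above them for 5, against 18.7% and 18.5% of all probes. Arc, a synaptic early gene, was at -2.39 with AngII+CsA and -2.02 with AngII in replicate 1 and between -0.37 and 0.66 elsewhere. Dusp2, a nuclear MAP kinase phosphatase, was at -3.22 with AngII+CsA and -2.05 with AngII there and between -0.92 and 0.12 elsewhere. Csrnp1, a nuclear early gene, was at 3.45 with AngII+CsA and 3.81 with AngII there and between 4.68 and 4.96 elsewhere. Rgs2, which shortens angiotensin receptor signalling, ran the other way, at 7.24 with AngII+CsA and 7.33 with AngII against 3.44 to 5.78 elsewhere, and so did Nr4a2, at 3.49 with AngII+CsA and 3.62 with AngII against 1.04 to 2.85. The genes named here were picked for this pattern after their values were seen.

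**Figure D4:**
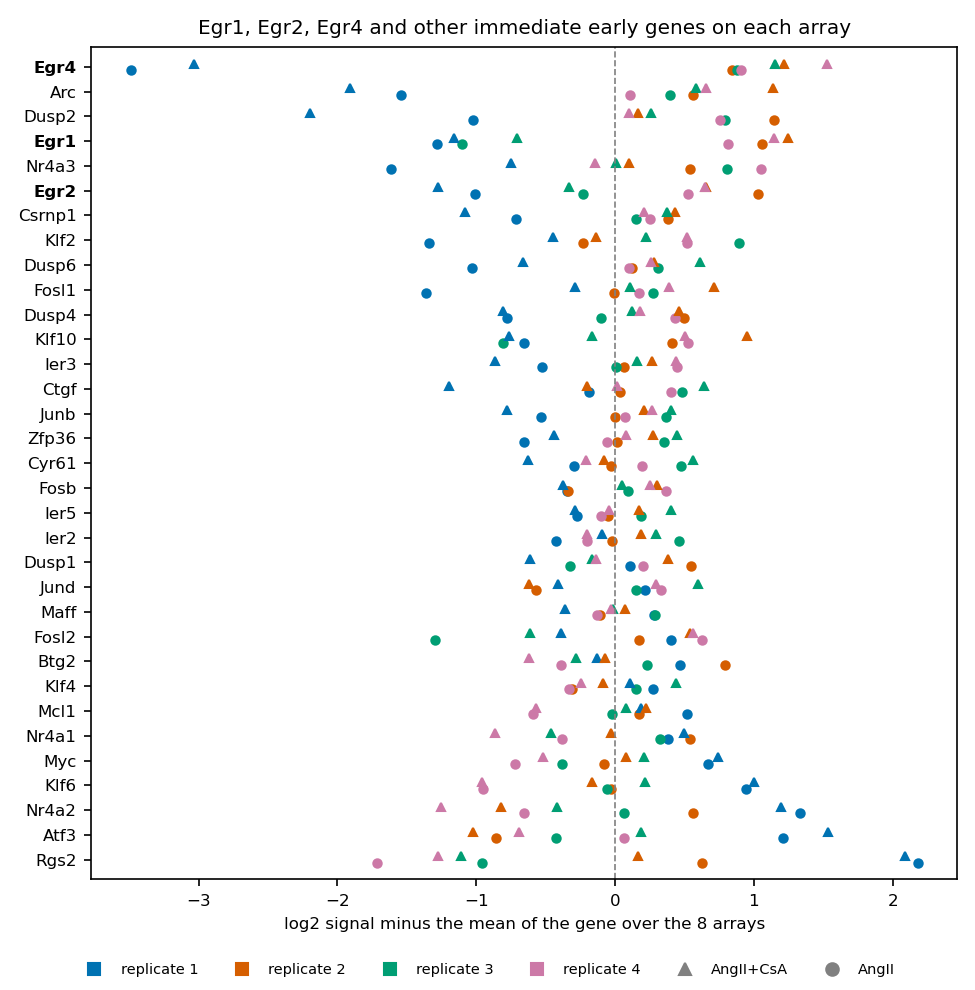
Egr1, Egr2, Egr4 (bold) and the 30 measured genes of the list of other immediate early genes on each array, as log2 signal minus the mean of the gene over the 8 arrays. Triangles are AngII+CsA, circles AngII, and colours the replicate numbers; genes are ordered by their mean in replicate 1. Egr4 is the gene furthest below its mean in replicate 1, where its signal was at background, and Rgs2 the furthest above.

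Markers of cell state differed by replicate number as well. The summed level of the 10 smooth muscle markers was 7.90 with AngII+CsA and 8.25 with AngII in replicate 1 and between 9.53 and 10.5 in the other 6 arrays. Both replicate 1 arrays lay below the rest for 5 of the 9 measured smooth muscle markers. They lay above the rest for 3 of the 3 measured fibroblast markers, which smooth muscle cells in culture also express. Of all probes, 18.7% had both arrays below the rest and 18.5% above. Both arrays were also below the rest for 2 of 2 measured macrophage, 1 of 2 T cell, 1 of 6 Schwann cell and 0 of 4 endothelial markers. Over the groups the summed smooth muscle level ran between 7.90 and 10.3 with AngII+CsA and between 8.25 and 10.5 with AngII. The part of these markers in the values of Egr1, Egr2, Egr4 and Nab1 was not tested. The summed level of 8 endothelial markers ran between -0.58 and -0.36 with AngII+CsA and between -0.35 and -0.012 with AngII, ranges that do not overlap. How often sums of other dim genes separate in this way was not counted. Of all probes tested, 9.45% were lower with AngII+CsA in 4 of 4 pairs. The median difference over all probes was -0.098 with no filter on dim probes, against -0.018 with the filter. Of the endothelial markers 4 were measured, with a median difference of -0.27 and 0 called, and 3 were above background on no array, Pecam1 and Cdh5 among them. Their part in the differences of Egr1 and Egr4 was not tested. The summed level of 6 fibroblast markers ran between 8.42 and 10.2 with AngII+CsA and between 8.23 and 10.2 with AngII, and that of 6 macrophage markers between 0.99 and 1.26 with AngII+CsA and between 0.77 and 1.30 with AngII. Of the other lists, 6 Schwann cell markers, which bear on Egr2, had a summed level between 1.17 and 1.44 with AngII+CsA and between 1.25 and 1.56 with AngII, and 5 T cell markers one between 0.11 and 0.69 with AngII+CsA and between 0.24 and 1.09 with AngII.

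The genes around the EGR and NAB proteins were described by lists, and in none of them did a gene pass the test with the block in either direction. For comparison, the median difference over all 14882 genes was -0.026, with 6453 positive and 8429 negative. Of 15 genes that carry signals to EGR promoters 10 were measured, with 5 positive and 5 negative differences and a median of 0.015. The smallest p among them belonged to Mkl2 (now Mrtfb), a coactivator of serum response factor (-0.44, above background on 2 of 4 arrays in each group), Creb1 (0.34), Srf itself (-0.34) and the ERK gene Mapk3 (0.12). None of these passed (adjusted p between 0.927 and 0.943 by limma with the block).

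Of 17 partners and competitors of the EGR and NAB proteins 15 were measured, 11 with positive and 4 with negative differences and a median of 0.041. The zinc finger gene Wt1, whose protein binds sites close to those of EGR1, differed by 0.20 and was higher in 4 of 4 pairs. Fhl2, a coregulator, differed by -0.31 and was lower in 4 of 4. Chd3, a remodeller subunit, differed by 0.13 and the acetyltransferase gene Ep300 by 0.16. Their adjusted p was at least 0.927 by limma with the block.

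Of 22 reported targets of EGR1 21 were measured, 12 with positive and 9 with negative differences and a median of 0.049. Igf2, the growth factor gene, differed by -0.36, the urokinase gene Plau by -0.31, the cytokine gene Tnf by -0.22 and the cyclin gene Ccnd1 by 0.20, and Igf2 and Tnf were above background on 2 of 4 arrays in each group. Tissue factor (F3), also on this list, was low in replicate 1 like Egr1, at 2.15 with AngII+CsA and 2.15 with AngII there and between 3.16 and 5.15 elsewhere. It was singled out after its values were seen. Of 18 reported targets of EGR2 and EGR3 in lymphocytes and Schwann cells 15 were measured, 7 with positive and 8 with negative differences and a median of -0.0076. Among those with the smallest p, the difference was 0.34 for Socs3 and -0.34 for Socs1, which restrain cytokine receptors, and 0.27 for Prx, which also stands among the Schwann cell markers.

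Of 33 other immediate early genes 30 were measured, 16 with positive and 14 with negative differences and a median of 0.0031. Those with the smallest p were lower with AngII+CsA, namely Dusp2 (-0.84), the antiproliferative gene Btg2 (-0.55) and the nuclear receptor genes Nr4a2 (-0.65) and Nr4a1 (-0.43), the first 3 in 4 of 4 pairs. None of these passed the adjustment over all probes (adjusted p between 0.789 and 0.927 by limma with the block). Egr1 and Egr4 differed from these named genes in sign but shared it with the 16 genes of the list that had positive differences. Of the measured genes of the list, 3 were higher with AngII+CsA in 4 of 4 pairs and 3 were lower in 4 of 4. The contrast in sign was not tested. The Fos probe was above background on 0 arrays.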

How the data were processed

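Intensities were deposited as 1 scanner file per array. Per the file headers, arrays of Agilent design 014868 were read by version 9.5.3.1 of Agilent's Feature Extraction software (protocol GE1-v5_95_Feb07), and the processed intensity is background-subtracted and not scaled between arrays. The authors also deposited log2 values of the same arrays, whose method and scale stay unknown. These served as an alternative.

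Controls and outliers among the spots were dropped and none was saturated. Spots of a probe were averaged as log2 and the array's 75th percentile was subtracted. Of 41174 probes, 22951 were named by accession in a RefSeq table of GRCm38.p6, 6659 by symbol and 11564 kept the file's name. Of the 19531 probes that passed the filter, 19530 had at least 2 complete pairs and were tested, every probe by itself, with limma 3.58.1 in R 4.3.3 (replicate number as a fixed block, two-sided, Benjamini-Hochberg threshold 0.05). Same-numbered arrays share a slide and a scan per the file headers, and after removal of group means their correlation was 0.70 to 0.86, against -0.76 to 0.25 for other arrays.

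The fit was tested on simulated data. Members, gene lists and the paired design were chosen with earlier results of these data known. The text names all members, Rcan1, up to 4 genes per list with the smallest p (called genes first), and the 3 genes most like each member, apart from 2 genes that are not reported here. Lists use the brightest probe per gene. Other settings covered the block, background correction, scaling, filter, outliers, probe choice, variance model and each replicate number left out. Promoter letters are RefSeq's in GRCm38.p6. Probe sequences are not shown.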

Additional observations from a re-analysis of the deposited data

Results flagged for a closer look

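In 24 checks of 4 values each for a sample that lies far from its group, 2 stood out, where chance flags about 1 in 20. Both were the replicate 1 cultures of Egr4, at -5.11 with AngII+CsA and -5.56 with AngII, with the other 3 arrays of each group between -0.92 and -0.54 and between -1.23 and -1.16. Both signals were not well above background, so they bound the level from above. The 2 arrays lie on the same slide and are not independent.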

How the results depend on the processing

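The 6 tested EGR and NAB probes kept an adjusted p above 0.05 under every alternative that tested them. Without the replicate block the adjusted p of each was 0.9999 with the same differences. Egr2 and Egr4 kept their sign, but the Egr2 difference of -0.15 moved to -0.065 with normexp, -0.050 with median scaling, -0.081 without replicate 2 and -0.25 without replicate 4, and the Egr4 difference of 0.43 to 0.076 with normexp. With normexp background correction Egr1 turned to -0.015, Nab1 A_52_P301724 to 0.032 and Nab2 to 0.058. The normexp offset of 50 draws the differences of dim probes toward 0. The linear signals of Nab1 A_52_P301724 and Nab2 were not dim, at least 208 and 1501. The cause of the sign changes with normexp was not tested. With median scaling Nab1 A_52_P301724 turned to 0.068 and Nab2 to 0.025, where the median of all probes was 0.087, against -0.018 with the 75th percentile. Leaving out 1 replicate number, the differences ran between -0.26 and 0.22 for Nab1 A_52_P301724 (above 0 without replicate 1), between -0.11 and 0.18 for Nab1 A_52_P318438 (below 0 without replicate 3) and between -0.19 and 0.024 for Nab2 (above 0 without replicate 1). The count of lower probes over the whole table, 2 with the block, was 0 without it and 0 with no filter, 8 with replicate as a random block, 4 with the filter of all 8 arrays, 4 with 1 probe per gene and 6 with an intensity trend, and 0 to 0 when any replicate number was left out. Higher probes were 0 in all settings, with 975 probes at an unadjusted p under 0.05 in either direction, 59 without the block and 4934 with normexp.

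The median of the list of inputs to EGR transcription moved to 0.13 with normexp and 0.12 with median scaling, that of partners to 0.12 and 0.15, and that of EGR1 targets to 0.15 with median scaling. Leaving out 1 replicate number, the medians ran between -0.047 and 0.043 for EGR1 targets and between -0.10 and 0.22 for smooth muscle markers. The macrophage median was -0.17 with no filter, and that of all genes 0.079 with median scaling and -0.093 with no filter. Median scaling adds the same amount to the difference of every probe, so its moves are alike for all lists. With no filter the medians took in genes that had not passed it. The cause of the other moves was not tested. Scaling to the percentile of probes detected on all arrays was added after seeing the data and left the sign of every EGR and NAB probe as it was. The number of arrays and the dim signals of Egr1, Egr3 and Egr4 limit the precision.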
